A study of Mus musculus with 9 samples.

Results

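The 36 genes described here encode proteins of homologous recombination, the Fanconi anaemia pathway, mismatch repair and the checkpoint that watches over replicating DNA. They were taken by name from the mouse symbols paired with the 49315 gene identifiers of the count table. All 36 were found once, and all 36 were among the 18211 genes that passed a filter on low counts and were tested. They were 11 genes of homologous recombination, 6 of break sensing and end resection, 8 of the Fanconi core complex, 3 of the Fanconi ID step and what follows it, 3 of mismatch repair and 5 of checkpoint signalling.

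Poly-A RNA was sequenced from mouse pancreatic stellate cells, fibroblast-like cells of the pancreas, taken from C57BL6 mice and immortalised by spontaneous outgrowth. The 3 groups of 3 libraries were HIF1a-ko hypoxia (1 guide against HIF1a, 48 h in 0.5% oxygen), R26 hypoxia (1 guide against R26, a locus commonly chosen as neutral, also 48 h in 0.5% oxygen) and R26 normoxia (the R26 guide, 48 h in 20% oxygen). Every group carried lentiviral Cas9 with its guide, was selected with puromycin and was used as a polyclonal population, so cells without an edit may remain. A HIF1a-ko group in 20% oxygen was not analysed here, and the effects of guide and oxygen were therefore not fitted as an interaction.

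Homologous recombination copies a broken stretch of DNA from the sister chromatid. The MRE11, RAD50 and NBN proteins find the break, CtIP (encoded by Rbbp8) and EXO1 trim its ends, and BRCA1 with BARD1, PALB2 and BRCA2 brings the recombinase to the single strand. The Fanconi core complex marks the FANCD2 and FANCI pair at crosslinked DNA, and mismatch repair corrects errors left by the polymerases. Many of these genes are transcribed mainly in cells that are about to copy their DNA, through E2F factors, and a fall of several repair genes in low oxygen has been described in other cells. For that reason the repair genes are set beside genes of S phase and of mitosis below.

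Library totals were 48176260 to 93471706 counts in HIF1a-ko hypoxia, 47176142 to 107840223 in R26 hypoxia and 43837809 to 88451200 in R26 normoxia, and 1 library of each group (HIF1a-ko hypoxia 1, R26 hypoxia 3 and R26 normoxia 3) was sequenced more deeply than the others. These deeper libraries also lay apart from the 6 shallower ones on the first principal component of all tested genes, which held 43.8% of the variance. Hif1a, the targeted gene, had 123, 117 and 125 CPM in the HIF1a-ko hypoxia libraries, against 178, 169 and 207 CPM in those of R26 hypoxia and 194, 192 and 225 CPM in those of R26 normoxia. Pdk1, a classical target of HIF-1, was at 28.5 to 31.0 CPM in HIF1a-ko hypoxia, 293 to 307 CPM in R26 hypoxia and 43.4 to 46.4 CPM in R26 normoxia, so both genes ran with the labels. Of 4 genes taken to check the labels (Hif1a, Pdk1, Slc16a3 and Egln3), all were called lower in HIF1a-ko hypoxia than in R26 hypoxia, as defined below. Against R26 normoxia, HIF1a-ko hypoxia had 1 of the 4 called higher, 2 lower and 1 not called, at log2 fold changes of -0.74 to 1.2. Of the 10 stellate and fibroblast markers, all were detected, with Col1a1 at 3610 to 6740 CPM and Des, a defining stellate marker, at 0.246 to 3.73 CPM in any library. Summed markers of other cells were at 14.1 to 61.7 CPM (epithelial), 18.7 to 86 CPM (leukocyte), 13.8 to 23 CPM (endothelial), 4.31 to 6.96 CPM (acinar and islet) and 0.521 to 63 CPM (adipocyte) in HIF1a-ko hypoxia. The same sums were 46.5 to 108, 9.54 to 84.6, 9.31 to 16.8, 9.9 to 12.2 and 0.246 to 110 CPM in R26 hypoxia, and 15.7 to 71.4, 14.1 to 63.4, 11.3 to 18, 9.86 to 14 and 0.484 to 88 CPM in R26 normoxia. The acinar and islet genes Amy2a5, Ins1 and Ins2 were at 0 in all 9 libraries. The epithelial gene Epcam was at 0.0104 CPM in HIF1a-ko hypoxia 1, 0.00945 CPM in R26 hypoxia 3 and 0.0113 CPM in R26 normoxia 3, the deeper libraries, and at 3.35 to 5.77 CPM in the 6 shallower ones. The adipocyte gene Adipoq was likewise at 0, 0 and 0.0113 CPM in the deeper libraries and at 6.33 to 14.9 CPM in the shallower ones, and counts of calls among the shallower libraries alone stand beside each comparison below.

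Expression is given as CPM, read counts scaled to a common library size with TMM factors, in the order of libraries 1, 2 and 3. Changes are log2 fold changes ± SE from edgeR's quasi-likelihood test with Benjamini-Hochberg adjustment over all 18211 genes, two-sided, and a gene is called at an adjusted p under 0.05. Whether libraries of 1 group stem from separate cultures is not stated in the labels. The p-values then measure only the spread between these libraries, and that spread may be technical. The library kit named in the labels does not mark strand. Reads of a gene and of a neighbour that overlaps it on the other strand therefore cannot be told apart. Overlaps are named below for some members only.

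The promoters of 6 members are printed here because the results below turn on these genes. Brca1, Rad51ap1, Brip1 and Fanci are 4 of those with the greatest rise in HIF1a-ko hypoxia, Fancg had the greatest rise of all members in R26 hypoxia, and Fance was the only member called lower in HIF1a-ko hypoxia. Each window holds 250 bases before and 50 bases after the start site, from RefSeq on GRCm38.p6, written 5′ to 3′ in the direction of the gene. Capitals mark E2F words, that is TTGGCGC, the word TTCCCGC, the word TTGCCGC or the word TTCGCGC, on either strand.
Brca1, chr11:101551906-101552205, minus strand: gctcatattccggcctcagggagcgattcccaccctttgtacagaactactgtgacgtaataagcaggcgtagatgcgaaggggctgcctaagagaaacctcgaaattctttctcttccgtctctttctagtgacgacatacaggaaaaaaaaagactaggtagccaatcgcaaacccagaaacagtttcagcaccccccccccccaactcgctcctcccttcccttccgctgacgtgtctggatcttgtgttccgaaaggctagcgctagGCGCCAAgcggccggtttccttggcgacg
Rad51ap1, chr6:126939538-126939837, minus strand: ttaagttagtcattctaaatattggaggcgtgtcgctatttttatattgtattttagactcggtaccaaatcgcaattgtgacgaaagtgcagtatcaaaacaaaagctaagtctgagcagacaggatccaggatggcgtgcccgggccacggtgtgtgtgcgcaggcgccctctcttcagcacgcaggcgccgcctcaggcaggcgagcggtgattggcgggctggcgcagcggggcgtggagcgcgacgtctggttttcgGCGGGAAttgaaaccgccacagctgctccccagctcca
Brip1, chr11:86201144-86201443, minus strand: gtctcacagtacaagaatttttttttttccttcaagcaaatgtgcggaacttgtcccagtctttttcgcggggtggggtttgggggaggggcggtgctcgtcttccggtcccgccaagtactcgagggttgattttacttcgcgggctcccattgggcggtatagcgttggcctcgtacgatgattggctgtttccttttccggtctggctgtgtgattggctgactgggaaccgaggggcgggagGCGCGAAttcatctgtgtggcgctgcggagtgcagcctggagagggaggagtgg
Fanci, chr7:79392088-79392387, plus strand: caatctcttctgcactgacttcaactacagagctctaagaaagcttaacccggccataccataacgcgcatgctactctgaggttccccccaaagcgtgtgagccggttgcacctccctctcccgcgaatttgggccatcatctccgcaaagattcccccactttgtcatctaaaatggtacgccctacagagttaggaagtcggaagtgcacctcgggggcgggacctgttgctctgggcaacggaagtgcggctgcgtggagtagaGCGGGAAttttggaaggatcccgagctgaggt
Fancg, chr4:43010252-43010551, minus strand: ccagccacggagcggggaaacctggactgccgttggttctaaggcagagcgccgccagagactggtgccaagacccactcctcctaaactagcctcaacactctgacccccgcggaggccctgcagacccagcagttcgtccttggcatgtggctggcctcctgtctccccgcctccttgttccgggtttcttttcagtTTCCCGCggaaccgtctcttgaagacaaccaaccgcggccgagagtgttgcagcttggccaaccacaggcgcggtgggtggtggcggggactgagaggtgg
Fance, chr17:28313280-28313579, plus strand: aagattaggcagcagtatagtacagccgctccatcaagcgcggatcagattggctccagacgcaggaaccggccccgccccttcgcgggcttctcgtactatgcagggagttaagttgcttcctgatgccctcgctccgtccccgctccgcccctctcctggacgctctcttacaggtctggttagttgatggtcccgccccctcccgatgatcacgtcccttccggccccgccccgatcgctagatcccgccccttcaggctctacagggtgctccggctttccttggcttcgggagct

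The words in the Brca1, Rad51ap1 and Fanci windows lay at bases 22, 13 and 19 after the start site, where base 1 is the first transcribed base. The word of Brip1 began 4 bases before the start site and that of Fancg 51 bases before it. The Fance window held none of the 4 words. Nor did the windows of Rad51b, not printed here, whose log2 fold change was 2.25 between the hypoxic groups. A match is a description of these letters and not of a bound site.

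Hypoxic cells with the HIF1a guide held much more repair mRNA than hypoxic control cells. The 36 genes together took 0.111% to 0.118% of all counts in HIF1a-ko hypoxia, against 0.0556% to 0.064% in R26 hypoxia and 0.0546% to 0.0604% in R26 normoxia. Between HIF1a-ko hypoxia and R26 hypoxia, 30 members were called higher and 1 lower, and 5 were not called. Of all tested genes, 46.7% were called in the same comparison, 22.6% higher and 24.1% lower. The median log2 fold change was 0.99 over the members, from -0.33 to 2.99, and -0.01 over all tested genes. The libraries of the groups did not overlap in 32 members, and in 54.6% of all tested genes. Among the 6 shallower libraries alone, 31 members were called higher and 1 lower, against 26.2% and 25.6% of the genes tested there. In bulk samples, a larger share of cells that express a gene and more RNA per cell cannot be told apart.

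**Figure D1:**
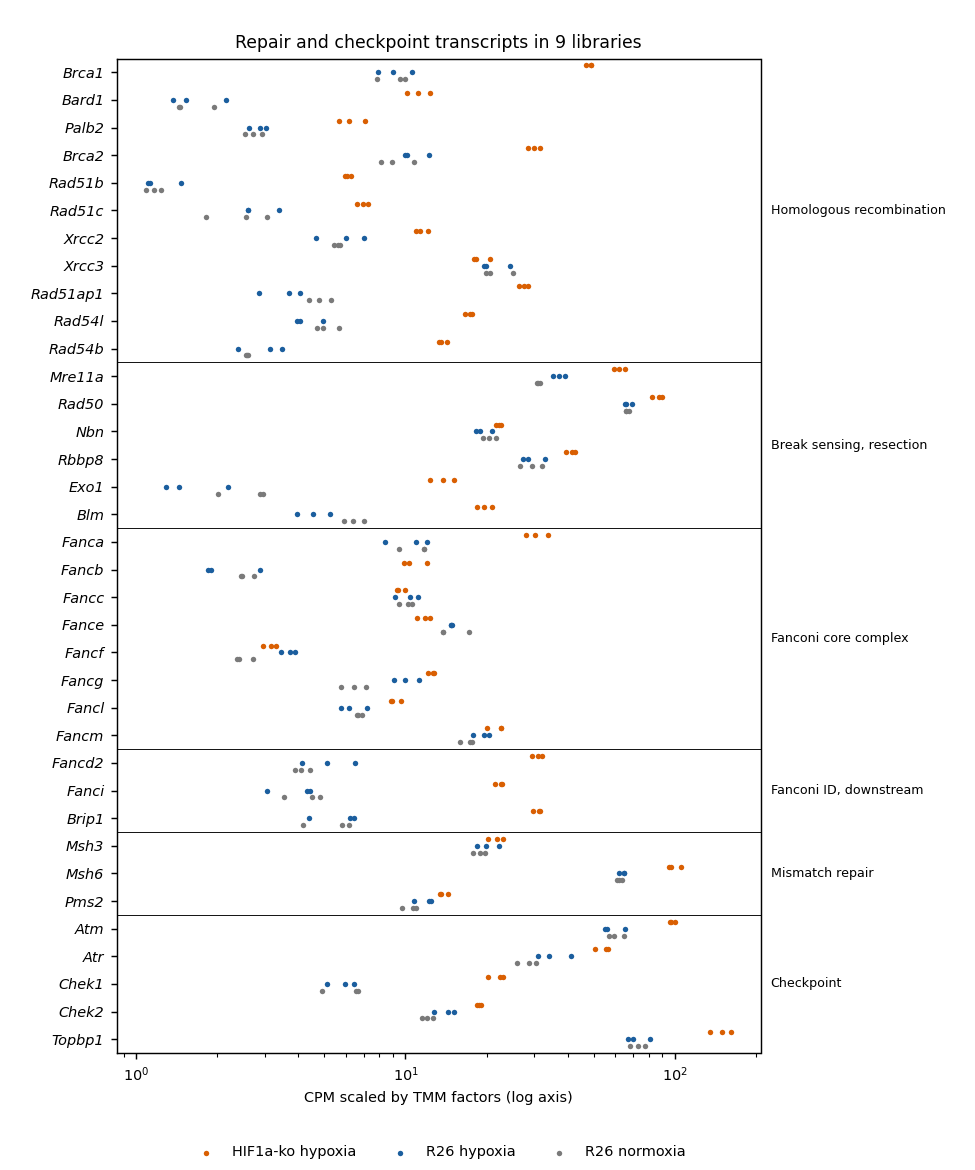
Level of each of the 36 genes in each of the 9 libraries, as TMM-scaled CPM on a log axis. Each point is 1 library, with HIF1a-ko hypoxia above R26 hypoxia and R26 normoxia in each row, and rows are ordered by role. Brca1 sits at 46.8 to 49 CPM in HIF1a-ko hypoxia, apart from 7.85 to 10.6 CPM in the other 6 libraries, whereas the points of Xrcc3 and Fancc overlap.

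Recombination genes were among those with the largest changes. Of the 11, 10 were called higher, with a median log2 fold change of 1.98, and 1 was not called. That is 90.9% called higher, against 22.6% of all tested genes. Brca1, which encodes the ubiquitin ligase that steers breaks towards recombination (ENSMUSG00000017146, chromosome 11, 101488764 to 101551955, minus strand, GRCm38), was at 46.8, 48.9 and 49 CPM in HIF1a-ko hypoxia, 9, 7.9 and 10.6 CPM in R26 hypoxia and 9.56, 7.85 and 9.96 CPM in R26 normoxia. The lowest HIF1a-ko library lay far above the highest of the other 6, which overlapped each other. The log2 fold change between HIF1a-ko hypoxia and R26 hypoxia was 2.38 ± 0.11 (SE), or 5.22-fold, with an adjusted p of 3.16e-07 by edgeR. Bard1, its partner, was at 12.3, 10.1 and 11.1 CPM in HIF1a-ko hypoxia, 1.37, 1.53 and 2.15 CPM in R26 hypoxia and 1.45, 1.44 and 1.94 CPM in R26 normoxia, a rise of 2.67 ± 0.17 between the hypoxic groups. The groups of the BRCA1 and BARD1 pair were thus separated in the same way, HIF1a-ko hypoxia from both others.

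Rad51ap1, which helps the recombinase pair DNA strands, was at 27.6, 26.5 and 28.5 CPM in HIF1a-ko hypoxia, 4.05, 2.86 and 3.68 CPM in R26 hypoxia and 5.29, 4.37 and 4.76 CPM in R26 normoxia. All 3 groups were apart from one another for this gene. It rose by 2.96 ± 0.11 between the hypoxic groups, or 7.78-fold, with an adjusted p of 1.08e-07 by edgeR. Rad54l and Rad54b encode translocases that act with the recombinase. Rad54l rose 3.94-fold and Rad54b 4.5-fold. Rad54b shares 2068 exonic bases with Fsbp on the same strand. It shares 34.5% of its sequence with other genes, most of all with Fsbp. Rad54l shares 1184 bases with Lrrc41 on the other strand, so the counts of Rad54b and Rad54l are uncertain.

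The loaders of the recombinase moved less. Brca2, which delivers it to single-stranded DNA, was at 30, 28.6 and 31.6 CPM in HIF1a-ko hypoxia, 9.94, 10.1 and 12.2 CPM in R26 hypoxia and 8.09, 8.9 and 10.8 CPM in R26 normoxia, a rise of 1.47 ± 0.12 between the hypoxic groups. Palb2, which joins BRCA1 to BRCA2, rose by 1.14 ± 0.12. The recombinase paralogues did not move as 1 block: Rad51b rose by 2.25 ± 0.13, Rad51c by 1.24 ± 0.16 and Xrcc2 by 0.93 ± 0.13. Xrcc3, another paralogue, was at 20.6, 18.2 and 18 CPM in HIF1a-ko hypoxia, 19.6, 19.9 and 24.5 CPM in R26 hypoxia and 19.9, 20.6 and 25.1 CPM in R26 normoxia. Its groups overlapped, with a log2 fold change of -0.18 ± 0.12 and an adjusted p of 0.254 by edgeR.

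In break sensing and resection all 6 genes were called higher, by unequal amounts, against 22.6% of all tested genes. Exo1, the nuclease that extends resected ends and also serves mismatch repair (ENSMUSG00000039748, chromosome 1, 175880581 to 175913489, plus strand), was at 13.8, 12.3 and 15.1 CPM in HIF1a-ko hypoxia, 1.44, 1.29 and 2.19 CPM in R26 hypoxia and 2.89, 2.02 and 2.96 CPM in R26 normoxia. The HIF1a-ko libraries stood apart from the other 6, while R26 hypoxia and R26 normoxia overlapped. Its log2 fold change between the hypoxic groups was 2.99 ± 0.19, or 7.93-fold, the greatest of the 36. Blm, the helicase mutated in Bloom syndrome, was at 18.5, 19.5 and 20.9 CPM in HIF1a-ko hypoxia and 4.55, 3.94 and 5.23 CPM in R26 hypoxia, a rise of 2.08 ± 0.11.

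The break sensors rose far less than these 2 enzymes. Mre11a, the nuclease of the sensor complex, was at 59.3, 62 and 65.3 CPM in HIF1a-ko hypoxia and 37.2, 35.3 and 39.1 CPM in R26 hypoxia, a rise of 0.74 ± 0.05. Rad50, its structural partner, rose by 0.37 ± 0.05 and Rbbp8 by 0.47 ± 0.09. Nbn, the third subunit, was at 21.7, 22.3 and 22.7 CPM in HIF1a-ko hypoxia and 18.2, 18.9 and 20.9 CPM in R26 hypoxia, with a change of 0.20 ± 0.07 and an adjusted p of 0.0396 by edgeR. The Nbn call was lost without R26 hypoxia 1, R26 hypoxia 2, HIF1a-ko hypoxia 2 or HIF1a-ko hypoxia 3, where its adjusted p was 0.0766 to 0.126 by edgeR.

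The Fanconi members moved by unequal amounts, also within the core complex given below. All 3 genes of the ID step and downstream were called higher, against 22.6% of all tested genes. Their median log2 fold change was 2.49. Fancd2, the subunit that is ubiquitinated at crosslinks (ENSMUSG00000034023, chromosome 6, 113531682 to 113597017, plus strand), was at 31, 29.5 and 32.2 CPM in HIF1a-ko hypoxia, 5.09, 4.12 and 6.47 CPM in R26 hypoxia and 4.09, 3.9 and 4.42 CPM in R26 normoxia. Its HIF1a-ko libraries lay above all others, and it rose by 2.54 ± 0.14 between the hypoxic groups. Fanci, its partner, was at 22.8, 21.5 and 22.6 CPM in HIF1a-ko hypoxia and 4.31, 3.06 and 4.41 CPM in R26 hypoxia, a rise of 2.49 ± 0.14. Brip1, a helicase bound by BRCA1, was at 31.3, 29.8 and 31.5 CPM in HIF1a-ko hypoxia and 6.44, 4.38 and 6.24 CPM in R26 hypoxia, a rise of 2.43 ± 0.15. Fanci shares 921 exonic bases with Polg on the other strand.

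In the Fanconi core complex, 4 of 8 genes were called higher, 1 lower and 3 not called, with a median of 0.24. These were 50% higher and 12.5% lower, against 22.6% and 24.1% of all tested genes. Fancb, a subunit of its catalytic module, was at 10.3, 9.86 and 12 CPM in HIF1a-ko hypoxia and 1.85, 1.89 and 2.88 CPM in R26 hypoxia, a rise of 2.21 ± 0.16. Fanca, a large core subunit, rose by 1.55 ± 0.14 and Fancl, the ubiquitin ligase itself, by 0.50 ± 0.09. On the other strand, Fanca shares 920 exonic bases with Zfp276 and Fancl shares 462 with Vrk2. Fance, which links the core to FANCD2 (ENSMUSG00000007570, chromosome 17, 28313519 to 28326572, plus strand), was at 12.3, 11.8 and 11 CPM in HIF1a-ko hypoxia, 14.7, 14.9 and 14.7 CPM in R26 hypoxia and 13.8, 17.2 and 13.8 CPM in R26 normoxia. All HIF1a-ko values were under those of both other groups, and the log2 fold change was -0.33 ± 0.09 with an adjusted p of 0.0139 by edgeR. Without HIF1a-ko hypoxia 3 the adjusted p of Fance was 0.0649 by edgeR.

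The remaining core subunits had small changes. Fancc had a log2 fold change of -0.10 ± 0.09, Fancf of -0.22 ± 0.11 and Fancm, the translocase that anchors the complex, of 0.17 ± 0.08, none of them called. Fancg was at 12.8, 12.6 and 12.1 CPM in HIF1a-ko hypoxia and 10, 9.07 and 11.2 CPM in R26 hypoxia, a rise of 0.30 ± 0.10 with an adjusted p of 0.0337 by edgeR. The Fancg call was lost in 5 of the 9 fits that left out 1 library, without R26 normoxia 1, R26 hypoxia 1 or 2, or HIF1a-ko hypoxia 1 or 2, with adjusted p-values of 0.0512 to 0.112 by edgeR. Fancc shares 1558 exonic bases with 2 genes on the other strand, and Fancm shares 738 with Gm47870 and Gm47869.

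Mismatch repair genes had small changes. Msh6, which recognises single mismatches, was at 95.2, 97.1 and 105 CPM in HIF1a-ko hypoxia, 64.9, 62 and 64.8 CPM in R26 hypoxia and 63.6, 60.8 and 61.9 CPM in R26 normoxia, a rise of 0.63 ± 0.05 between the hypoxic groups, or 1.55-fold. Pms2, the endonuclease subunit, had a change of 0.22 ± 0.08 with an adjusted p of 0.043 by edgeR, and lost its call without any 1 of 6 libraries (R26 normoxia 1, R26 hypoxia 1 or 2, or HIF1a-ko hypoxia 1, 2 or 3), at adjusted p-values of 0.0613 to 0.139. Msh3, which recognises larger loops, was at 20.2, 21.9 and 23 CPM in HIF1a-ko hypoxia and 22.2, 18.4 and 19.9 CPM in R26 hypoxia, groups that overlapped.

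All 5 checkpoint genes were called higher, against 22.6% of all tested genes. Chek1, the kinase that restrains the cell cycle when forks stall, was at 22.4, 20.2 and 23.1 CPM in HIF1a-ko hypoxia, 6.46, 5.09 and 5.95 CPM in R26 hypoxia and 6.55, 4.88 and 6.64 CPM in R26 normoxia, a rise of 1.91 ± 0.12 between the hypoxic groups. Topbp1, which activates ATR, was at 150, 135 and 162 CPM in HIF1a-ko hypoxia and 69.7, 66.8 and 81.1 CPM in R26 hypoxia, a rise of 1.04 ± 0.09. The apical kinases moved less. Atm rose by 0.73 ± 0.07, Atr by 0.61 ± 0.10 and Chek2, the kinase downstream of ATM, by 0.41 ± 0.07. Atr shares 1188 exonic bases with genes on the other strand.

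**Figure D2:**
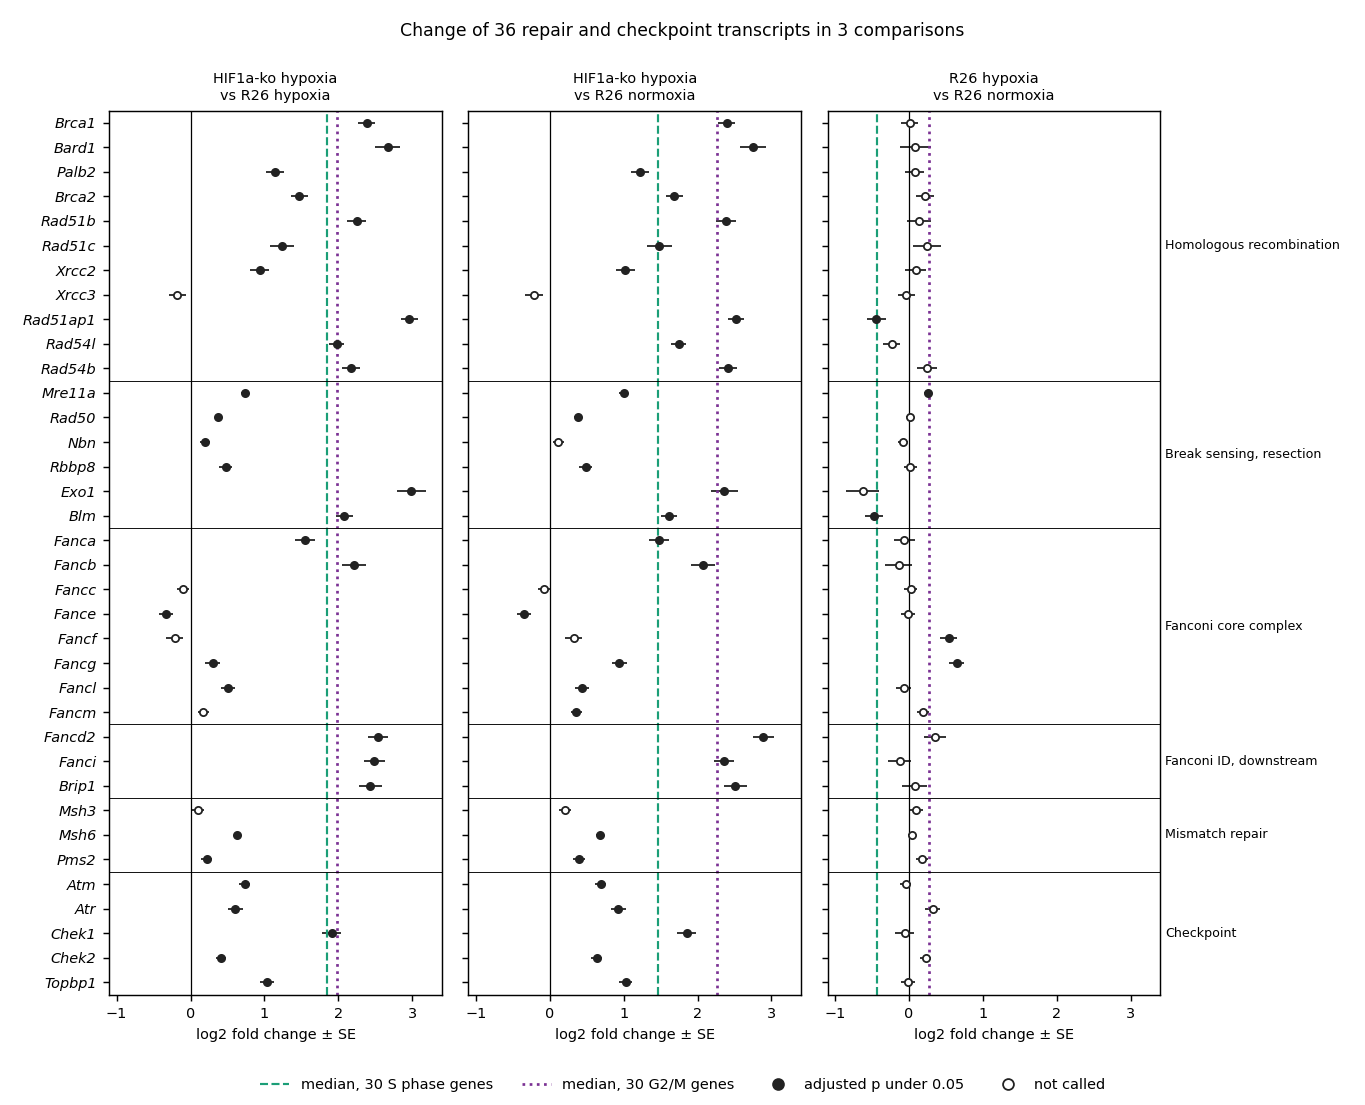
Log2 fold change ± SE of the 36 genes by edgeR in 3 comparisons (panels), with filled points for an adjusted p under 0.05 and open points for genes not called. The dashed and dotted lines give the medians of 30 S phase and 30 G2/M genes, at 1.84 and 1.98 in the left panel and at -0.43 and 0.27 in the right panel. In the left panel the Fanconi ID genes and much of homologous recombination lie at or beyond these lines, and most mismatch repair and Fanconi core genes lie near 0.

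With no filter on low counts, Nbn, Fancg and Pms2 lost their calls, at adjusted p-values of 0.0744, 0.0527 and 0.0798 by edgeR, and 27 members stayed called higher. By size, 11 of the 30 members called higher between the hypoxic groups had a log2 fold change of at least 2, 7 of 1 to 2, and 12 of under 1. The 11 were Brca1, Bard1, Rad51b, Rad51ap1, Rad54b, Exo1, Blm, Fancb, Fancd2, Fanci and Brip1. Alongside these changes, the summed level of 10 stellate and fibroblast markers was 12400 to 12900 CPM in HIF1a-ko hypoxia, against 19000 to 20500 CPM in R26 hypoxia and 16000 to 17800 CPM in R26 normoxia, and the acinar and islet sum was lower as given above. Their part in the result was not tested.

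Low oxygen on its own changed few of these genes in control cells. Between R26 hypoxia and R26 normoxia, 3 members were called higher and 2 lower, and 31 were not called. Of all tested genes, 25.8% were called, 13.1% higher and 12.7% lower, and of the members 8.33% higher and 5.56% lower. With a block for replicate number, calls rose among all genes as well. In that fit 22.5% of the genes tested were called higher and 20.1% lower, beside 9 of 36 members higher and 3 lower. The members' share of higher calls then no longer lay under that of all genes, while their share of lower calls still did. The median was 0.03 over the members, from -0.62 to 0.64, and -0.01 over all tested genes. Groups did not overlap in 8 members, against 38.4% of all tested genes.

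Fancg, a Fanconi core subunit that binds FANCA (ENSMUSG00000028453, chromosome 4, 43002343 to 43010506, minus strand), was at 10, 9.07 and 11.2 CPM in R26 hypoxia and 6.44, 5.76 and 7.16 CPM in R26 normoxia. Every R26 hypoxia library was above every R26 normoxia library, with a log2 fold change of 0.64 ± 0.10 and an adjusted p of 0.00195 by edgeR. Fancf, another core subunit, was at 3.74, 3.9 and 3.45 CPM in R26 hypoxia and 2.4, 2.37 and 2.72 CPM in R26 normoxia, a rise of 0.54 ± 0.12. Fancf lies in 1 exon, and 253 of its bases overlap Gas2 on the other strand. Mre11a was at 37.2, 35.3 and 39.1 CPM in R26 hypoxia and 30.7, 31.7 and 31 CPM in R26 normoxia, a rise of 0.26 ± 0.06.

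The 2 members that fell were Blm and Rad51ap1. Blm was at 4.55, 3.94 and 5.23 CPM in R26 hypoxia and 7, 5.92 and 6.37 CPM in R26 normoxia, with a log2 fold change of -0.47 ± 0.12 and an adjusted p of 0.0158 by edgeR. Rad51ap1, with the values above, had a change of -0.44 ± 0.12 and an adjusted p of 0.0275 by edgeR. Both groups of values were apart in both genes, but the calls were not firm. Blm lost its call without R26 normoxia 1, at an adjusted p of 0.06, and Rad51ap1 lost it without R26 normoxia 1, R26 normoxia 3, R26 hypoxia 2 or HIF1a-ko hypoxia 3, at adjusted p-values of 0.0503 to 0.0952 by edgeR. Rad51ap1 was also not called with no filter on low counts, at 0.0576, or in a fit of only the 2 groups, at 0.0898. Exo1 had the lowest log2 fold change, -0.62 ± 0.22, with an adjusted p of 0.0697. Exo1 was called lower by DESeq2, at an adjusted p of 0.0137, and among the 6 shallower libraries, at -0.84 with an adjusted p of 0.0165 by edgeR.

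Brca1, whose fall in low oxygen has been described in other cells, had a log2 fold change of 0.01 ± 0.12 between R26 hypoxia and R26 normoxia and an adjusted p of 0.967 by edgeR. Brca2 had a change of 0.22 ± 0.12, Fancd2 of 0.35 ± 0.15 and Atr of 0.32 ± 0.10, the last at an adjusted p of 0.0514. Msh6 was at 1.03-fold. A p that misses the threshold does not show that these levels are equal, and no change past a log2 value of 1 was called in either direction. The deeper library had the highest CPM of its group for 12 of 36 members in HIF1a-ko hypoxia, 29 in R26 hypoxia and 19 in R26 normoxia, and the part of depth in the results was not tested beyond the fits that follow. With the replicate number as a block, Brca2, Fancm, Fancd2, Pms2, Atr and Chek2 joined the members called higher and Exo1 those called lower. With the depth class as a term, 6 were called higher and 3 lower, against 19.1% and 19.9% of all tested genes; Fancd2, Atr and Chek2 were the added higher ones. Among the 6 shallower libraries alone, 4 were called higher and 3 lower, against 15.5% and 14.6% of the genes tested there.

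Cells with the HIF1a guide in low oxygen were also set against control cells in normal oxygen. These comparisons share libraries with those above, so their values are given side by side and are not independent. Between HIF1a-ko hypoxia and R26 normoxia, 30 members were called higher and 1 lower, and 5 were not called. Of all tested genes, 42% were called, 19.9% higher and 22.1% lower. The median was 1.03 over the members, from -0.35 to 2.89, and the groups did not overlap in 33 members, against 53.2% of all tested genes. Among the 6 shallower libraries alone, 31 were called higher and 1 lower, against 23.8% and 22.6% of the genes tested there. The genes not called were Xrcc3, Nbn, Fancc, Fancf and Msh3.

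Fancd2 had the greatest rise in this comparison, 2.89 ± 0.14 or 7.41-fold, beside 2.54 ± 0.14 between the hypoxic groups and 0.35 ± 0.15 between the R26 groups. Exo1 rose by 2.36 ± 0.19 here and by 2.99 ± 0.19 between the hypoxic groups. Fancg rose in all 3 comparisons, by 0.94 ± 0.10, 0.30 ± 0.10 and 0.64 ± 0.10 in HIF1a-ko hypoxia against R26 normoxia, in HIF1a-ko hypoxia against R26 hypoxia and in R26 hypoxia against R26 normoxia. Fance was lower by -0.35 ± 0.09, with an adjusted p of 0.0138 by edgeR that became 0.0737 without HIF1a-ko hypoxia 3. Fancf was at 3.3, 3.18 and 2.95 CPM in HIF1a-ko hypoxia, between R26 hypoxia and R26 normoxia, with no call against either.

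Levels between genes were compared per kilobase of exon. The median over the 36 genes was 3.29 CPM per kb in HIF1a-ko hypoxia, 1.24 CPM per kb in R26 hypoxia and 1.23 CPM per kb in R26 normoxia. With union exon length, Msh6 had the highest level in every group, at 22.8 ± 1.2 CPM per kb in HIF1a-ko hypoxia, 14.7 ± 0.379 CPM per kb in R26 hypoxia and 14.3 ± 0.325 CPM per kb in R26 normoxia (SD, n = 3). Rad50 came next on that length, at 16.1 ± 0.654 CPM per kb in HIF1a-ko hypoxia and 12.4 CPM per kb in both R26 groups. The order at the top depends on the length used: per kb of the longest transcript, Topbp1 was at 28.5 CPM per kb in HIF1a-ko hypoxia, above Msh6 at 23.3 CPM per kb, and it lay above Rad50 in every group. The lowest levels were those of Palb2 in HIF1a-ko hypoxia, at 0.859 ± 0.0987 CPM per kb, of Exo1 in R26 hypoxia, at 0.195 ± 0.0573 CPM per kb, and of Bard1 in R26 normoxia, at 0.285 ± 0.0505 CPM per kb. Under 1 CPM per kb lay 1 gene in HIF1a-ko hypoxia and 14 in each R26 group. Xrcc3 and Nbn, at 7.76 ± 0.999 and 7.63 ± 0.553 CPM per kb in R26 hypoxia, do not differ beyond their spread, nor do Topbp1 and Mre11a, at 6.46 ± 0.673 and 6.28 ± 0.321 CPM per kb, all on union exon length.

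Proliferation genes gave the yardstick. Of 30 S phase genes, all were called higher between HIF1a-ko hypoxia and R26 hypoxia, with a median of 1.84. All 30 G2/M genes were also called higher, with a median of 1.98, against 22.6% of all tested genes. Mki67, the marker of cycling cells, was at 406, 388 and 415 CPM in HIF1a-ko hypoxia, 103, 99.9 and 128 CPM in R26 hypoxia and 80.6, 72.4 and 92.2 CPM in R26 normoxia. Mcm5, a subunit of the replicative helicase, was at 122, 117 and 135 CPM in HIF1a-ko hypoxia, 19.1, 17.1 and 20.5 CPM in R26 hypoxia and 34.3, 34.7 and 37.7 CPM in R26 normoxia. The 2 lists moved apart in control cells, between R26 hypoxia and R26 normoxia. Of the S phase genes, 19 were called lower and 0 higher, with a median of -0.43. Of the G2/M genes, 9 were called higher and 0 lower, with a median of 0.27. Among all tested genes, 13.1% were called higher and 12.7% lower there.

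Set against this yardstick, the median of the repair genes lay below both proliferation lists in HIF1a-ko cells and between them in control cells. Between the hypoxic groups the members' median was 0.85 under that of the S phase list and 0.99 under that of the G2/M list. Above the S phase median were 13 of 36 members: Brca1, Bard1, Rad51b, Rad51ap1, Rad54l, Rad54b, Exo1, Blm, Fancb, Fancd2, Fanci, Brip1 and Chek1. Below the lowest S phase gene, at 0.75, were 17 members, and below the lowest G2/M gene, at 1.55, were 23. Between R26 hypoxia and R26 normoxia the members' median was 0.46 above that of the S phase list and 0.24 under that of the G2/M list, and 33 of 36 members were above the S phase median. The lists and the members were chosen with results known, so these values have no test.

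**Figure D3:**
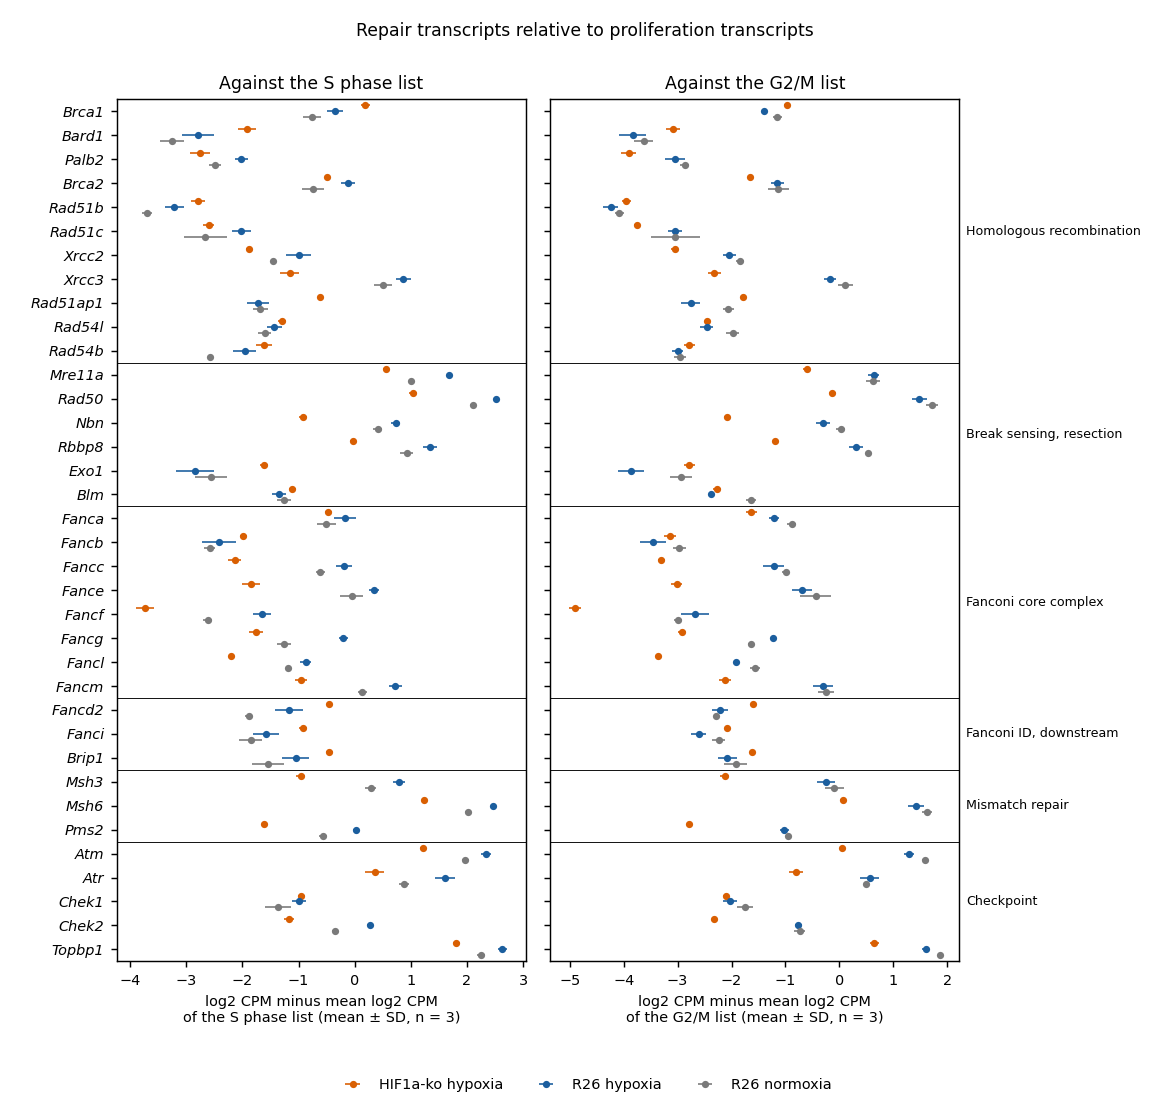
Log2 ratio of each gene to the mean log2 CPM of 30 S phase genes (left) or 30 G2/M genes (right), mean ± SD of 3 libraries, for HIF1a-ko hypoxia, R26 hypoxia and R26 normoxia from top to bottom in each row. Against the S phase list, Brca1 lies at 0.19 in HIF1a-ko hypoxia, -0.35 in R26 hypoxia and -0.76 in R26 normoxia, whereas Fance lies at -1.85, 0.35 and -0.05 in the same groups.

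Per library, the ratio to the S phase genes differed between repair genes. The log2 ratio of Brca1 was 0.19 ± 0.08 in HIF1a-ko hypoxia, -0.35 ± 0.14 in R26 hypoxia and -0.76 ± 0.16 in R26 normoxia (SD, n = 3). That of Fancd2 was -0.45 ± 0.03 in HIF1a-ko hypoxia, -1.17 ± 0.25 in R26 hypoxia and -1.89 ± 0.07 in R26 normoxia. For both genes the differences between groups in this ratio to the S phase list were larger than the spread within them. Atr went the other way between the hypoxic groups, with 0.36 ± 0.17 in HIF1a-ko hypoxia, 1.60 ± 0.18 in R26 hypoxia and 0.88 ± 0.09 in R26 normoxia. Relative to the G2/M genes, the log2 ratio of Brca1 was -0.97 ± 0.06 in HIF1a-ko hypoxia, -1.39 ± 0.04 in R26 hypoxia and -1.15 ± 0.08 in R26 normoxia, so its place between the R26 groups depends on which list is the yardstick. That of Fancd2 to the G2/M genes was -1.61 ± 0.02 in HIF1a-ko hypoxia, -2.21 ± 0.15 in R26 hypoxia and -2.28 ± 0.04 in R26 normoxia, and the R26 groups then differed by less than their spread.

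The other genes of these pathways, 47 that are not among the 36, are given beside them. Between HIF1a-ko hypoxia and R26 hypoxia, 31 were called higher and 5 lower, with a median of 0.45. These were 66% and 10.6%, against 22.6% and 24.1% of all tested genes. Rmi2, which works with the BLM helicase, had the greatest change, 3.47 ± 0.31, at low levels of 3.39, 1.87 and 2.46 CPM in HIF1a-ko hypoxia against 0.283, 0.239 and 0.217 CPM in R26 hypoxia. Ube2t, the ubiquitin-conjugating enzyme of the Fanconi pathway, rose by 2.32 ± 0.13, and Timeless, a fork protection protein, by 2.12 ± 0.07. The 8 Fanconi genes among the 47 had 4 called higher and 0 lower, or 50% and 0%, with a median of 0.15. Of these, Usp1 rose by 1.06 ± 0.10, while Fan1 at -0.14 ± 0.10 and Wdr48 at -0.09 ± 0.05 were not called. Between R26 hypoxia and R26 normoxia, 3 of the 47 were called higher and 7 lower, with Psmc3ip, a cofactor of strand exchange, at -0.86 ± 0.22. These were 6.38% and 14.9%, against 13.1% and 12.7% of all tested genes, so the share called lower lay near that of all genes.

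Repair routes that do not use recombination are given beside them. Between the hypoxic groups, 5 of 9 end joining genes were called higher and 0 lower, or 55.6% and 0%. Of 16 base excision genes, 7 were called higher and 4 lower, or 43.8% and 25%. Of 13 nucleotide excision genes, 4 were called higher and 6 lower, or 30.8% and 46.2%. Of all tested genes, 22.6% were called higher and 24.1% lower. The base excision share called lower and the nucleotide excision share called higher lay near these. The medians were 0.19, 0.09 and -0.13 in that order. Polq, the polymerase of microhomology-mediated end joining, rose by 2.29 ± 0.10, and Neil3, a glycosylase, by 2.50 ± 0.14. Xpa, which verifies lesions in nucleotide excision, fell by 1.15 on the log2 scale.

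**Figure D4:**
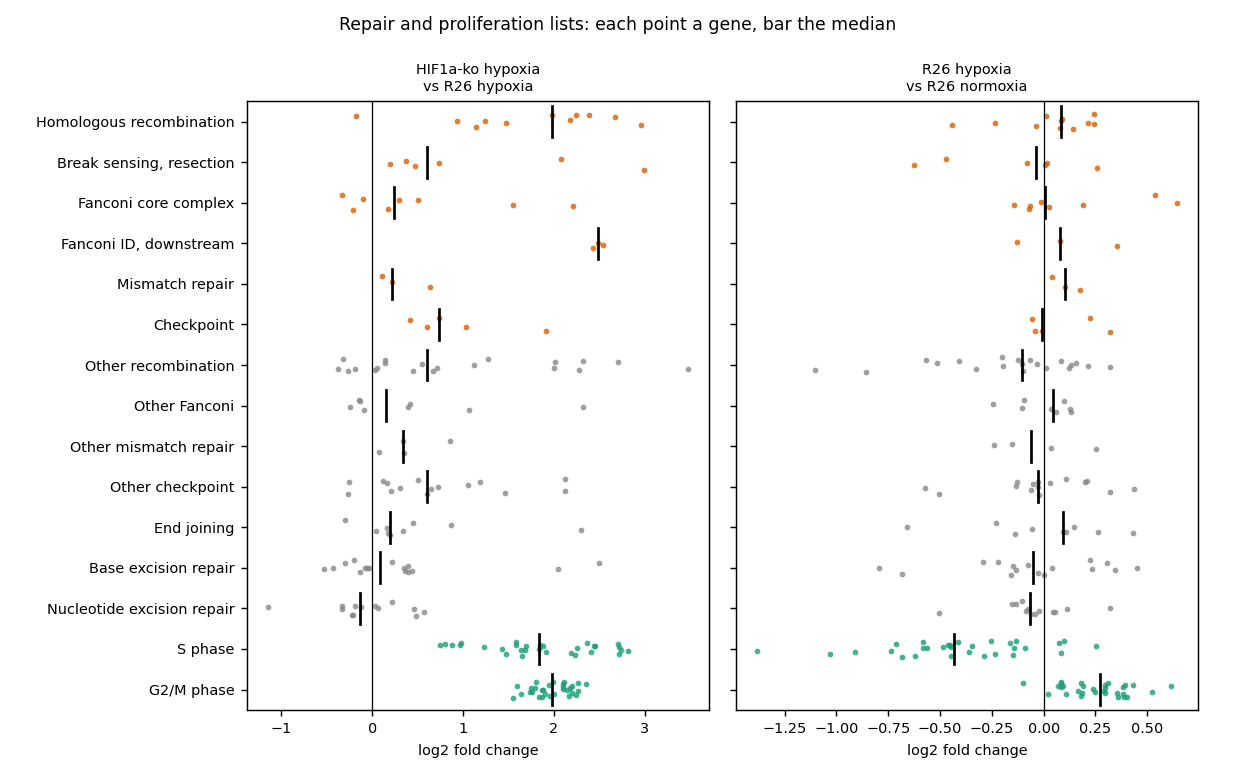
Log2 fold change of every gene (point) of the repair lists and of the S phase and G2/M lists, with the median as a bar, for HIF1a-ko hypoxia against R26 hypoxia (left) and R26 hypoxia against R26 normoxia (right). Orange marks the 36 genes by role, grey the other repair genes and green the proliferation genes. On the left the Fanconi ID genes reach a median of 2.49 and the nucleotide excision genes -0.13. On the right the S phase genes have a median of -0.43 and the repair lists lie near 0.

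A promoter was in the RefSeq table for 29 of the 36 genes, and those of Xrcc2, Rad54b, Rad50, Nbn, Rbbp8, Exo1 and Fancd2 were not used here. An E2F word was in the window of 19 of the 29, or 65.5%, against 10.9% of the 27025 genes in the table and 18.2% of the 11972 tested genes in it. The CCAAT word was in 65.5% of the members, 41.1% of all genes and 42.3% of tested genes. A cell cycle homology word, TTTGAA or TTCGAA, was in 10.3% of the members, 21.7% of all genes and 16.7% of tested genes. A core hypoxia response word, ACGTG or GCGTG, was in 69% of the members, 46.7% of all genes and 64.3% of tested genes. All words were searched on both strands, and in Msh3 and Topbp1 a pair of E2F words overlap each other.

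The members with and without an E2F word overlapped in their changes. Between HIF1a-ko hypoxia and R26 hypoxia, the 19 with a word had a median of 1.24, from -0.22 to 2.96, and the 10 without one a median of 0.67, from -0.33 to 2.25. Fancf, Fancm and Msh3 held a word and were not called, while Rad51b, Rad54l and Fanca held none and rose by 2.25, 1.98 and 1.55. Of the printed windows, that of Fance without a word belongs to the member that was lower, and that of Fancg holds TTCCCGC. Between R26 hypoxia and R26 normoxia the medians were 0.08 with a word and 0.01 without.

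**Figure D5:**
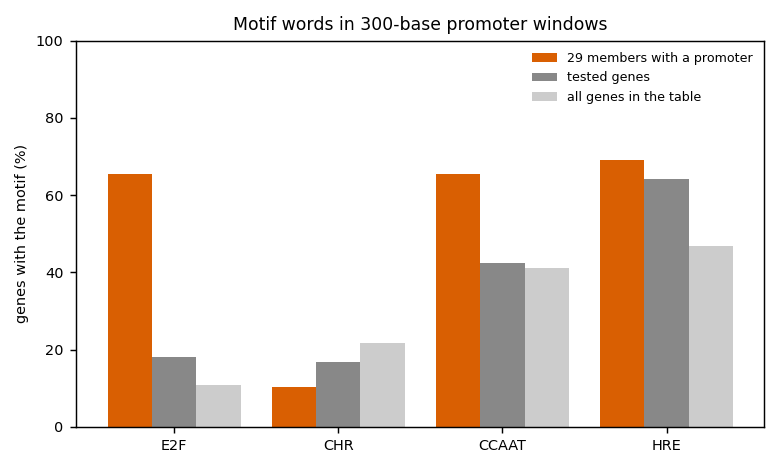
Percent of genes whose 300-base promoter window holds each kind of word, for the 29 members with a window, the tested genes and all genes of the table. The E2F words are in 65.5%, 18.2% and 10.9% of these, and the hypoxia response words (HRE) in 69%, 64.3% and 46.7%.

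The E2F and DREAM regulators, 20 genes that drive or hold back cell cycle transcription, were read in the same libraries. Between HIF1a-ko hypoxia and R26 hypoxia, 14 were called higher and 2 lower, or 70% and 10%, against 22.6% and 24.1% of all tested genes. E2f8, an atypical repressor of the family, was at 20.7, 17.5 and 19.5 CPM in HIF1a-ko hypoxia and 2.63, 2.31 and 3.17 CPM in R26 hypoxia, a rise of 2.80 ± 0.12. Between R26 hypoxia and R26 normoxia, 2 were called higher, E2f1 by 0.35 ± 0.05 and Rbl2 by 0.32 ± 0.09, and 0 lower. These were 10% and 0%, against 13.1% and 12.7% of all tested genes.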

How the data were processed

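RNA counts of 9 libraries were analysed. The authors deposited raw read counts (whole numbers) for each Ensembl gene. The tools bcl2fastq (version 2.17), STAR, Trimmomatic, DESeq2 and featureCounts and the build GRCm38 are named, per the submitters' processing notes. Their settings, the annotation release and how reads with several matches were counted were not given in the sources used here. Per the labels' protocols, libraries were made from poly-A RNA. GENCODE M21 gave a symbol for 48970 of 49315 identifiers.

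The test was edgeR 4.0.16 under R 4.3.3 (glmQLFit and glmQLFTest, TMM factors, filterByExpr, group as the only term, all 9 libraries in 1 fit), with Benjamini-Hochberg adjustment over 18211 genes. The fit was also run on simulated data with 200 changed genes, where deeper and shallower libraries differed only in their totals. That run therefore does not show how the test behaves with the depth pattern of these libraries. DESeq2 1.42.0 was an alternative. Libraries of a group differed by a chi-square per degree of freedom of 6.18 to 63, above sampling noise, so none was treated as a copy of another; this does not show that they are independent cultures. Log2 CPM for the proliferation ratios used a prior count of 2. Deeper libraries have over 1.5 times the median total.

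The members and lists were chosen with earlier results of these data known, and no list was tested as a set. Named are all 36 members, and of each other list at most 4 called genes with the largest changes, here mostly 1. Mki67, Mcm5 and the label check genes Hif1a, Pdk1, Slc16a3 and Egln3 are named as well. So are Fan1 and Wdr48, which were not called, and the cell type markers Col1a1, Des, Epcam, Adipoq, Amy2a5, Ins1 and Ins2. The S phase, G2/M and other repair lists hold textbook genes and share no gene with the members.

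Deviations of libraries with the same replicate number were correlated over all tested genes: 0.48, 0.53 and 0.855 between R26 hypoxia and R26 normoxia, so the counts of calls with a replicate block are given beside that comparison, while its main test has no block. Libraries 1 and 2 of these groups also correlated across numbers, at 0.587 and 0.498. Number 3 is the deeper library in both groups, so from these groups alone a shared number 3 and greater depth cannot be told apart. HIF1a-ko hypoxia 1, the deeper library of its group, correlated at 0.828 with R26 hypoxia 3 and at 0.837 with R26 normoxia 3. The same-number correlations were -0.656, 0.574 and -0.651 between HIF1a-ko hypoxia and R26 hypoxia, and -0.616, 0.587 and -0.667 between HIF1a-ko hypoxia and R26 normoxia, where the numbers do not pair. The labels do not say what a number shares. Levels between genes are CPM per kb of union exon length (GENCODE M21), and promoters are from RefSeq on GRCm38.p6. Alternatives were RLE factors, no filter, DESeq2, the 2 groups alone, the replicate block, the depth class as a term, the 6 shallower libraries and leaving out each library.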

Additional observations from a re-analysis of the deposited data

How the results depend on the processing

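Between HIF1a-ko hypoxia and R26 hypoxia, and between HIF1a-ko hypoxia and R26 normoxia, no member changed direction under any alternative run, and 27 to 31 and 30 to 32 members were called higher in the alternatives other than those that left out a library. With depth class as a term, 2 members were called lower in each of these comparisons in place of 1, and leaving out 1 library gave 0 to 1 in each. The replicate block gave 27 higher and 1 lower between HIF1a-ko hypoxia and R26 hypoxia, and 30 higher and 1 lower between HIF1a-ko hypoxia and R26 normoxia.

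Between R26 hypoxia and R26 normoxia the counts are small and move. The 3 members called higher became 9 with the replicate block and 6 with depth class as a term, and 3 to 6 without 1 library. The 2 called lower became 1 with no filter, 1 with only the 2 groups compared, and 0 to 4 without 1 library. The log2 fold changes near 0 changed sign, none of them called. With no filter, with only the 2 groups, and with the replicate block, Fance was at 0.0058, 0.0072 and 0.015 and Topbp1 at 0.0066, 0.0090 and 0.0079. Among the 6 shallower libraries, Brca1 was at -0.029, Rad51b at -0.041, Xrcc2 at -0.042, Rad50 at -0.0096, Fancc at -0.022 and Chek1 at 0.026. Leaving out 1 library gave -0.13 to 0.026 for Atm, -0.20 to 0.30 for Bard1, -0.12 to 0.11 for Brca1, -0.060 to 0.23 for Brip1, -0.18 to 0.041 for Chek1, -0.19 to 0.065 for Fanca, -0.047 to 0.094 for Fancc, -0.060 to 0.098 for Fance, -0.25 to 0.012 for Fanci, -0.017 to 0.027 for Rad50, -0.052 to 0.21 for Rad51b, -0.076 to 0.097 for Rbbp8, -0.099 to 0.052 for Topbp1, -0.079 to 0.23 for Xrcc2 and -0.16 to 0.095 for Xrcc3. The cause was not tested.

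The members' median minus that of the S phase list, 0.46 between R26 hypoxia and R26 normoxia, was 0.42 among the 6 shallower libraries and 0.39 to 0.48 without 1 library. Without 1 library it was -0.90 to -0.75 between HIF1a-ko hypoxia and R26 hypoxia, and -0.45 to -0.42 between HIF1a-ko hypoxia and R26 normoxia. With means in place of medians it was -0.66 and -0.21 in these comparisons, and against the G2/M list -0.78 and -0.98. With the longest transcript as length, the median level was 4.79 CPM per kb in HIF1a-ko hypoxia, 2.05 in R26 hypoxia and 1.94 in R26 normoxia. An E2F word before the start site was held by 11 members, against 19 in the whole window. Before the start site alone these were 37.9% of the members, against 9.01% of all genes in the promoter table.

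Each group has 3 libraries, 1 guide per target and no HIF1a-ko normoxia libraries here, so an effect of the guide cannot be told apart from a difference between the cell populations. Exo1, Bard1 and Rad51b were near 1 to 3 CPM in the R26 groups, where counting error weighs most.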
